A study of Caenorhabditis elegans with 12 samples.

Results

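The mir-80; mir-58 double mutant of Caenorhabditis elegans was compared with wild type by RNA sequencing of whole animals at the late L4 stage. The double mutant (strain MT18409) carries the deletion nDf53 on chromosome III, which removes mir-80, and mir-58(n4640) on chromosome IV. The wild type was N2 Bristol. Each group had 3 samples, so the comparison takes 6 of the 12 samples of the series, and it covers every one of the 16309 gene names that the authors listed. All groups were fed isotope-labelled bacteria of the light form for 2 generations, synchronised by bleaching and staged by the shape of the vulva. Double mutants were collected 6 h later than wild type, which was collected 33 h after transfer, so genotype and time of collection cannot be told apart. Nothing in the labels says that the 3 samples of a group were separate cultures, and the spread between them may be technical.

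A microRNA is a short RNA that guides an Argonaute protein to messenger RNAs whose untranslated regions pair with its seed, and the usual outcome is less of the target RNA or protein. The miR-58 family (miR-58, miR-80, miR-81 and miR-82 share a seed) is among the most abundant microRNA families in C. elegans somatic tissue. Its members act redundantly, and receptors of the TGF-beta pathways and the p38 kinase PMK-2 are among its reported targets. In the double mutant mir-81 and mir-82 are still in place. The values are the authors' own log2 fold changes of the double mutant over wild type with adjusted p-values. A gene is called here when its adjusted p is under 0.05, and it is then said to have risen or fallen. Levels in single samples were not analysed here, so no replicate error, depth or level per gene can be given. Because the animals were sequenced whole, fewer cells of a type and less RNA per cell cannot be told apart.

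More genes rose than fell in the double mutant, and those that rose moved further. By the authors' deposited table, 1715 genes (10.5% of those listed) rose and 955 (5.86%) fell. The counts given for each list below are to be read beside these shares. Genes that rose had a median log2 fold change of 2.81 per the authors' deposited table, those that fell a median of -1.0, and all listed genes a median of 0.08. At a log2 fold change of 4 or more the authors' deposited table has 266 genes that rose, while 8 genes fell to -4 or below. At an adjusted p under 0.01 the authors' deposited table keeps 1345 genes that rose (8.25%) and 569 that fell (3.49%). No called gene moved by less than 0.6 on the log2 scale per the authors' deposited table, and 37 genes that moved by at least 3 were not called. Of the genes that rose, 58.8% are known by a sequence name alone, against 33.7% of those that fell and 43.4% of all names per the authors' deposited table.

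**Figure D1:**
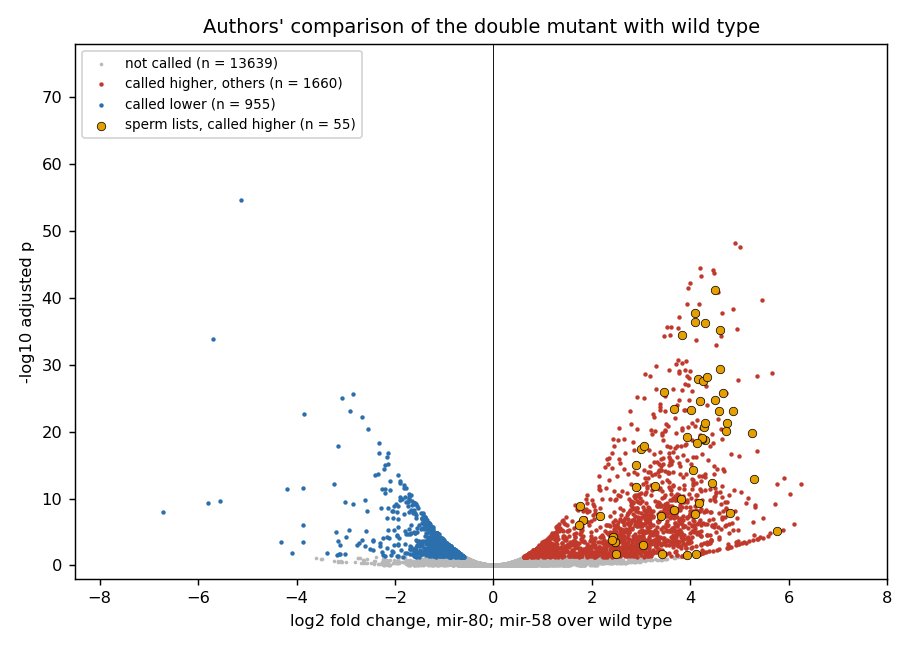
Each point is 1 gene of the authors' comparison, with the log2 fold change of the double mutant over wild type on the x axis and −log10 of the adjusted p on the y axis. The 1715 genes that rose spread to the right as far as 6.25, the 955 that fell are fewer and mostly above -2, and the 55 called members of the sperm lists (orange) lie at high fold changes.

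The genes at the extremes differed in kind. The highest was F37E3.3 (comp-1), a kinase-like gene of sperm competition, at 6.25 per the authors' deposited table (adjusted p = 5.92e-13), 76.1-fold higher in the double mutant. Next to it stood B0507.6 at 6.11, Y53C10A.10 at 6.03 and F49C12.2 at 5.90 per the authors' deposited table, all known by sequence name alone. Among the 15 highest were 2 further genes of known sperm association, R08A2.3 (ssp-33, a gene of a sperm-specific family) at 5.76 and F09E8.1 (spe-43, which acts in sperm activation) at 5.73 per the authors' deposited table. At the other end stood K06H6.1 at -6.71, K06H6.2 at -5.79 and F15E11.15 (pud-3) at -5.70 per the authors' deposited table. They are on a list of genes grouped by K06H6, F15E11 and C14C6 names. Of its 13 listed members 6 fell and 1 rose, and its median was -2.49 per the authors' deposited table. C14C6.5 was the gene that rose, at 1.4 per the authors' deposited table (adjusted p = 2.18e-07). The smallest adjusted p of the comparison belonged to clec-47, a C-type lectin gene, at -5.12 per the authors' deposited table (adjusted p = 2.06e-55). Genes of similar sequence can share reads, and how shared reads were assigned is not given in the sources used here.

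No microRNA is among the listed names, so loss of mir-80 and mir-58 was not measured. Y67D8A.2, the gene whose span overlaps mir-58.1 in the annotation, was at 0.20 per the authors' deposited table (adjusted p = 0.916). Strand was not considered. The listed neighbours of mir-80, F44E2.8 and K01F9.2, were at -0.12 and 0.21 per the authors' deposited table and were not called. The neighbours of mir-58.1, M4.1 and Y67D8A.3, stood at 0.60 and 0.92 per the authors' deposited table and missed the threshold (adjusted p = 0.0953 and 0.0629). T07D1.2, whose span overlaps mir-81 and mir-82, was not called either, at 0.29 per the authors' deposited table. The annotation also holds a locus named mir-58.2 on chromosome IV, and which locus n4640 affects is not given in the labels. Of its listed neighbours, Y73B6A.1 rose, at 2.61 per the authors' deposited table (adjusted p = 2.35e-05), and C01B10.11 was not called, at -0.26.

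Of the 6 listed genes reported as targets of the family, 2 rose, none fell, and the median was 0.46 against 0.08 for all names per the authors' deposited table. The receptor gene sma-6, of the type I receptor for body size signalling, was 2.75-fold higher in the double mutant per the authors' deposited table (log2 fold change 1.46). The p38 kinase gene pmk-2 was 2.3-fold higher in the double mutant by the authors' deposited table (log2 fold change 1.2). The other receptor genes were not called. The type II receptor gene daf-4, on both the body size and dauer lists, stood at 0.47 per the authors' deposited table (adjusted p = 0.212). For daf-1, the type I receptor gene of the dauer pathway, the value was 0.44 per the authors' deposited table (adjusted p = 0.305). Among the others, the coactivator gene cbp-1 at 0.37 and the ligand gene dbl-1 at -0.10 per the authors' deposited table were not called either.

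The rest of these pathways was examined from the ligand side inward. Of 12 listed genes of body size TGF-beta signalling, 1 rose (sma-6) and 1 fell. The gene that fell was lon-2, a glypican that restrains the DBL-1 ligand, at -1.07 per the authors' deposited table (adjusted p = 0.00406). The Smad genes sma-2 at 0.25 and sma-4 at 0.49, the co-factor gene sma-9 at 0.53 and the downstream gene lon-1 at -0.08 per the authors' deposited table were not called. None of the 8 listed dauer pathway genes was called, from the ligand gene daf-7 at 0.01 to the Smad gene daf-14 at 0.61 per the authors' deposited table, and their median was 0.44. Of 8 listed p38 pathway genes 3 rose, 1 of them (pmk-2) at an adjusted p under 0.01. Besides pmk-2 they were atf-7, a transcription factor downstream of the kinase, at 0.69 and vhp-1, a phosphatase that acts on stress kinases, at 0.65 per the authors' deposited table (adjusted p = 0.0292 and 0.0392). Upstream, the adaptor tir-1 at 0.33, the kinases nsy-1 at 0.09 and sek-1 at -0.20, and pmk-1, the paralogue of pmk-2, at 0.09 per the authors' deposited table were not called. In the mir-58 single mutant and the quadruple mutant, which are compared with the same wild type samples, sma-6 was at 0.79 and 2.14 per the authors' deposited table and pmk-2 at 0.63 and 2.26. For both genes the double mutant lay between the other strains in value. The quadruple mutant was collected later still than the double mutant, so these values do not separate genotype from time.

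**Figure D2:**
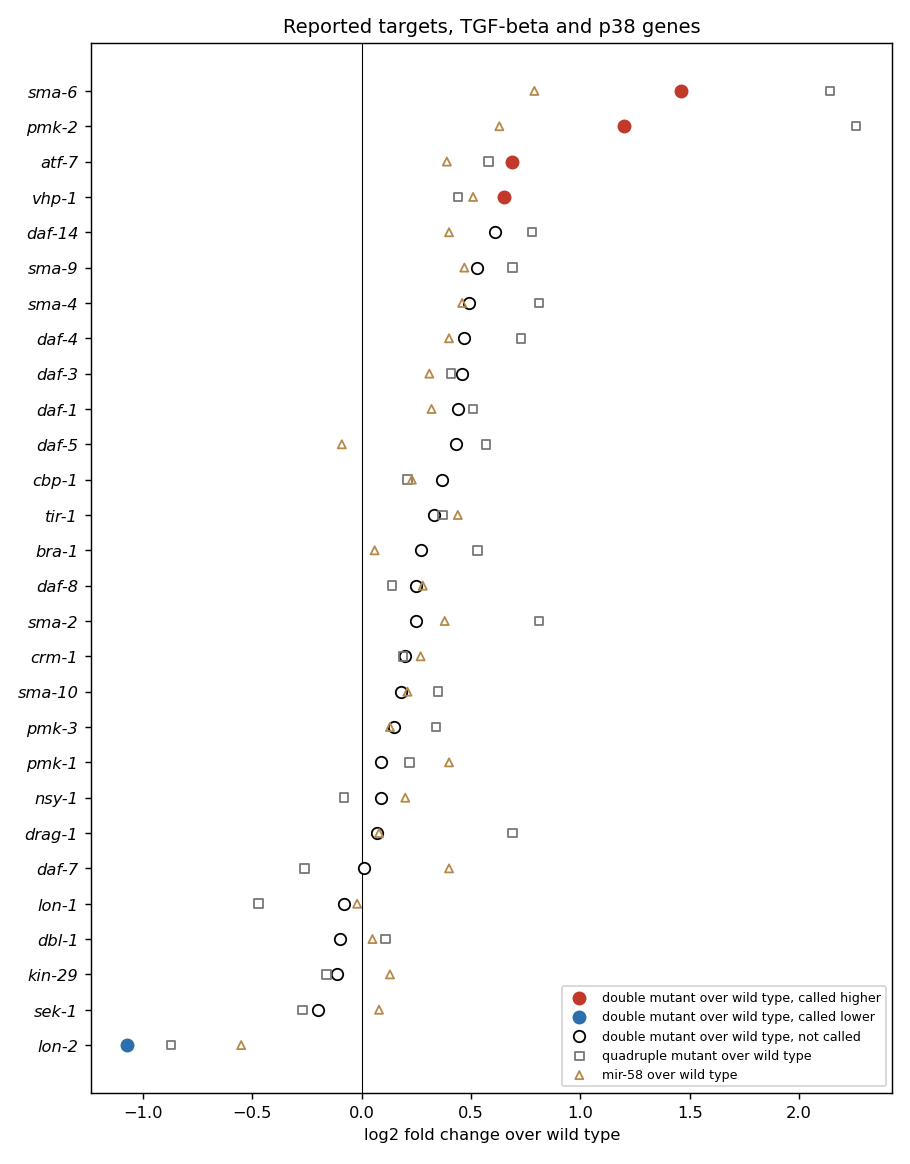
The x axis gives log2 fold changes over wild type in the authors' comparisons for reported targets, TGF-beta and p38 genes, sorted by the double mutant. Large circles are the double mutant (red, called higher; blue, called lower; open, not called), with the quadruple mutant as squares and mir-58 as triangles; the called genes are sma-6, pmk-2, atf-7 and vhp-1 on the right and lon-2 on the left.

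Genes of sperm rose almost as a block. Sperm of the hermaphrodite are made in the L4 stage, before the germline switches to oocytes, and their motility rests on the major sperm protein cytoskeleton. All 16 listed msp genes rose, with a median of 4.56 per the authors' deposited table. All 14 listed genes of the sperm-specific families ssp, ssq and sss and all 5 listed nspd genes rose too, with medians of 4.19 and 4.15 per the authors' deposited table. Of 22 listed genes with a known function in sperm 20 rose, at a median of 3.05 per the authors' deposited table. Many of these copies are nearly identical in sequence, so single values of msp and nspd genes are uncertain.

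Genes that rose span the steps of sperm formation and use. In the spermatocyte, spe-4, the presenilin of the sperm-specific secretory organelles, stood at 1.74 per the authors' deposited table (adjusted p = 8.14e-07), and spe-10, their palmitoyltransferase, at 2.43. The sperm phosphatase genes gsp-3 and gsp-4, close relatives that act in spermatid division and motility, were 11-fold and 12.6-fold higher in the double mutant per the authors' deposited table. The ferlin gene fer-1, needed for organelle fusion with the plasma membrane, stood at 1.81 per the authors' deposited table (adjusted p = 1.58e-07). At sperm activation, snf-10, a transporter relative, was at 4.09 per the authors' deposited table and spe-6, a casein kinase, at 2.16. For contact with the egg, spe-9, a surface protein with EGF repeats, stood at 2.41, and spe-41, a calcium channel, at 3.06 per the authors' deposited table (adjusted p = 0.000176 and 1.25e-18). Of later use, spe-11, whose product the sperm brings into the egg, was 16.7-fold higher in the double mutant per the authors' deposited table (adjusted p = 5.93e-15). The members that were not called were spe-29 at 0.27 and spe-39 at 0.06 per the authors' deposited table. The product of spe-39 acts in vesicle traffic in other tissues as well.

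Values of the other mutants, which are compared with the same wild type samples, are given beside those of the double mutant for a few of these genes. The sperm gene F44D12.3 (msd-1, of the major sperm protein class) was at 4.29 in the double mutant and at -3.62 in the mir-58 single mutant per the authors' deposited table, and gsp-4 was at 3.66 and -3.96. For spe-15 and snf-10 the mir-58 values were nearer 0, at -0.16 and -0.43 per the authors' deposited table. In the quadruple mutant the authors' deposited table gives 4.21 for msd-1 and 3.53 for gsp-4. The single mutant was collected at the time of the wild type, and the double and quadruple mutants later.

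Oocyte and egg genes rose in part. Of 19 listed oocyte RNA-binding genes 7 rose and none fell, at a median of 0.77 per the authors' deposited table, and 3 of the 7 passed at an adjusted p under 0.01. They include puf-5, a translational repressor of oocyte messages, at 1.47, and mex-5, a zinc-finger protein of embryo polarity, at 0.86 per the authors' deposited table (adjusted p = 0.000135 and 0.00616). Its partner mex-6 was at 0.98 and the oocyte maturation gene oma-1 at 0.77 per the authors' deposited table (adjusted p = 0.0163 and 0.0452). Of 16 listed eggshell and egg activation genes 7 rose. The largest of these, C44B12.5 (perm-4) and C44B12.1 (perm-2), encode proteins of the egg's outer layers and were 9.32-fold and 8.11-fold higher in the double mutant per the authors' deposited table. The chondroitin proteoglycan genes cpg-1 and cpg-2 stood at 1.17 and 1.24 per the authors' deposited table, and egg-1, an egg surface receptor needed for fertilisation, at 1.2. Eggshell chitin synthase chs-1 at 0.39 and egg-3 at 0.75 per the authors' deposited table were not called.

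Yolk is made by the intestine and taken up by oocytes through the receptor RME-2. Of 6 listed yolk genes 4 rose. The vitellogenin genes vit-6 and vit-2 were 5.1-fold and 3.25-fold higher in the double mutant per the authors' deposited table (adjusted p = 8.09e-17 and 4.23e-09), while the receptor gene rme-2 was 2.03-fold higher. The gene vit-3 was at 2.50 per the authors' deposited table (adjusted p = 0.00179), while vit-1 at 0.30 and vit-4 at 1.1 were not called. Since vit-3, vit-4 and vit-5 are near-identical copies, the split between them is uncertain.

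Genes of sex determination, meiosis, germline stem cells and P granules mostly kept below the threshold. Of 22 listed sex determination genes 3 rose (13.6%, against 10.5% of all names). Among them was gld-1, a translational repressor of the meiotic germline, at 0.97 per the authors' deposited table (adjusted p = 0.000759). The sperm fate genes fog-1 and fog-3 were at -0.53 and -0.71 per the authors' deposited table, which was no call (adjusted p = 0.209 and 0.119). Of 28 listed meiosis genes 1 rose, C03D6.6 (lab-1, which protects cohesin on long chromosome arms), at 2.07 per the authors' deposited table. All 28 values were above 0, at a median of 0.38 against 0.08 for all names. Of 10 listed germline stem cell genes 1 rose, near the 10.5% of all names. It was gld-1, which is counted above among the sex determination genes as well. The gene glp-1, for the Notch receptor of the stem cell niche, was at 0.39 per the authors' deposited table (adjusted p = 0.359). None of 8 listed P granule genes was called, though all 8 values were above 0, at a median of 0.32 per the authors' deposited table. Among 19 listed germline small RNA genes 6 rose (31.6%, against 10.5% of all names). They were led by T22B3.2 (alg-3, an Argonaute of spermatogenesis) at 3.83 per the authors' deposited table (adjusted p = 2.92e-35). That gene is also counted above among the genes with a known function in sperm. The other 5, among them C16C10.3 (hrde-1, the nuclear Argonaute of inherited silencing) at 0.87, lay between 0.83 and 0.98 per the authors' deposited table. Of 32 listed histone genes 8 rose, 4 of them at an adjusted p under 0.01, with his-70, an H3 variant, at 2.80 per the authors' deposited table. Other histone genes have near-identical copies, so their single values are uncertain. Of 13 listed cell cycle genes 2 rose (15.4%), neither at an adjusted p under 0.01. They were the B-type cyclin genes cyb-1 at 0.77 and cyb-2.2 at 1.09 per the authors' deposited table.

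**Figure D3:**
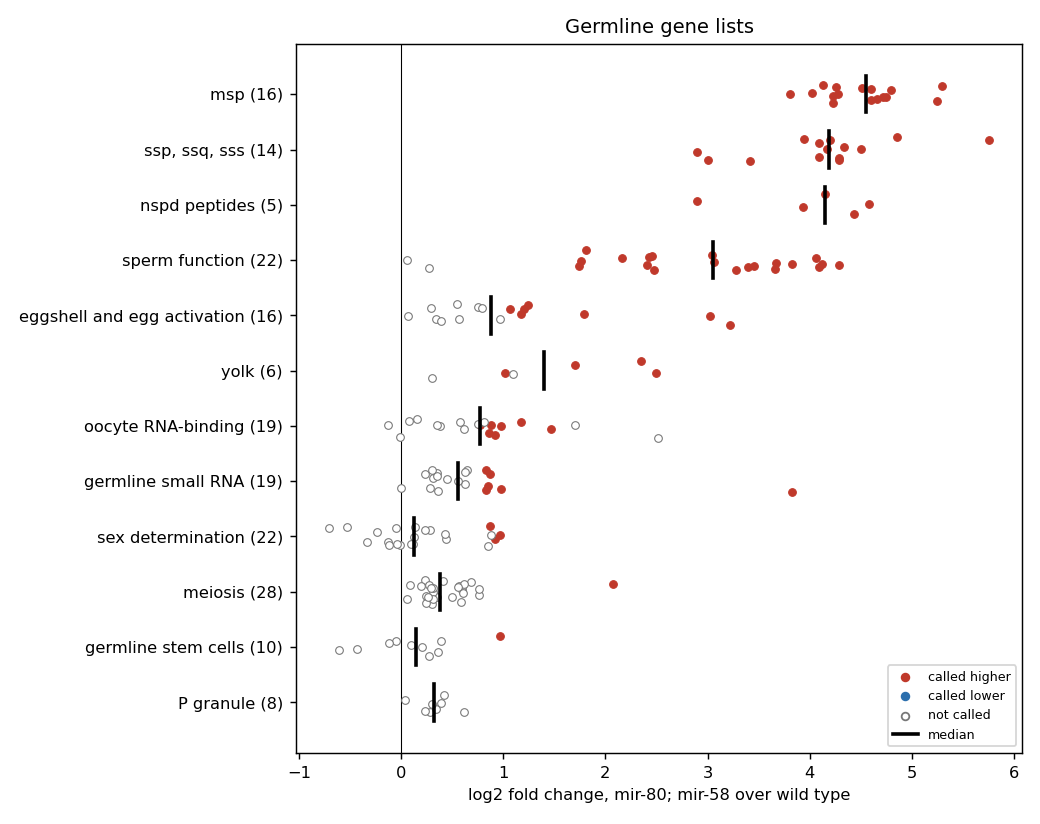
Each point is 1 listed gene, the x axis is the log2 fold change of the double mutant over wild type in the authors' comparison, and bars mark list medians (red, called higher; open, not called; list sizes in brackets). The msp, ssp, ssq, sss and nspd genes lie between 2.9 and 5.76, oocyte and eggshell lists have medians of 0.77 and 0.88, and meiosis and P granule genes lie mostly under 1.

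Embryo and male genes were examined because whole animals could hold early embryos or males. Of 13 early embryo genes looked for, 5 were listed. Among these 1 rose, C35E7.1 (vet-2) at 2.64 per the authors' deposited table (adjusted p = 0.00392), while the endoderm gene end-1 was at -2.14 without a call (adjusted p = 0.311). Of 12 male genes looked for, 7 were listed. None of the 7 was called, although all 7 values were above 0, at a median of 0.74 per the authors' deposited table. The part of such cells in the sperm and egg values was not tested.

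The X chromosome, which is poor in sperm genes, stood apart from the autosomes. Of 2233 genes on X, 67 rose per the authors' deposited table (3.0%), against 1581 of 13272 autosomal genes (11.9%). Of X genes 236 fell (10.6%) per the authors' deposited table, against 692 autosomal genes (5.21%). Chromosome IV had the largest share of genes that rose, 15.2% of 2555 per the authors' deposited table, and V the smallest of the autosomes at 8.93%. Of the 57 listed members of the sperm lists, 24 lie on chromosome IV and none on X. Without these sperm lists 11.6% of autosomal genes rose per the authors' deposited table. The X share could not change, as none of these genes lies on X. Sperm genes outside the lists, such as comp-1 and spch-1, were kept, so the part of sperm genes in the difference was not tested.

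**Figure D4:**
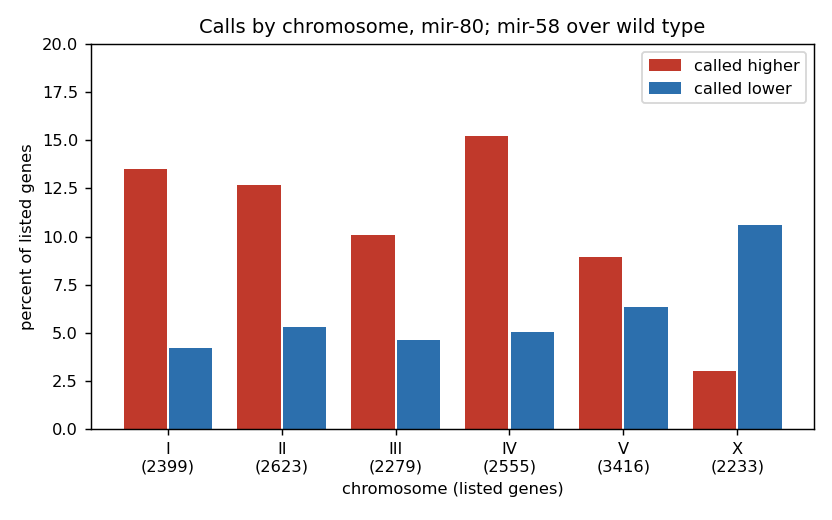
Bars give the percentage of listed genes called higher (red) and lower (blue) in the double mutant over wild type, by chromosome, with the number of listed genes in brackets. On X 3.0% rose and 10.6% fell, whereas on each autosome more genes rose than fell.

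Some genes that rose lay side by side. Counting runs of at least 4 neighbouring listed genes with the same call, the authors' deposited table gave 21 runs of genes that rose (97 genes) and 3 of genes that fell (13 genes). Chromosome IV held 7 of the runs of genes that rose, with 38 genes. One of its runs, of 6 genes from 2.37 to 4.60 per the authors' deposited table, joins msp-81, kin-24, nspd-2, K07F5.8, ssp-10 and ssq-1. The longest, of 8 genes from Y4C6A.3 to T11F8.1, includes the yolk receptor gene rme-2 and spans 1.02 to 4.41 per the authors' deposited table. Both runs of fallen genes on X are short. One is col-167 to col-170, cuticle collagens from -1.53 to -0.74 per the authors' deposited table.

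The cuticle genes split in direction. The worm's cuticle is a collagen coat that is remade at every moult, with stage-specific collagens. Of 148 listed col genes 31 rose (20.9%, against 10.5% of all names) and 43 fell (29.1%, against 5.86%). The median was -0.37 per the authors' deposited table. Among those that rose, col-129, col-139 and col-81 stood at 3.96, 3.93 and 4.17 per the authors' deposited table, and col-156, col-54 and col-146, among those that fell, stood at -2.32, -2.17 and -1.68. Of 14 listed shape collagens outside the furrow group 4 rose. They were rol-1 at 2.41, dpy-17 at 2.55, and bli-2 and bli-1, collagens of the struts of the adult cuticle, at 1.26 and 0.79 per the authors' deposited table. None of the 6 listed furrow collagen genes was called, and their median was 0.14 per the authors' deposited table. In the mir-58 single mutant rol-1 was at -4.58, bli-2 at -3.17 and dpy-17 at 0.08 per the authors' deposited table.

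Other genes of the skin and moult changed in smaller numbers. Of 54 listed hedgehog-related genes 6 rose (11.1%, against 10.5% of all names) and 9 fell (16.7%, against 5.86%), and wrt-4 and wrt-6 stood at 1.29 and 1.31, and grl-21 at -1.65 per the authors' deposited table. Of 74 listed pqn and abu genes, several of which form the cuticle of the pharynx, 13 fell and 2 rose, 8 and 2 of them at an adjusted p under 0.01, with abu-6 at -1.82 and pqn-5 at -1.52 per the authors' deposited table. Of 24 listed moulting genes 1 rose and 2 fell, none at an adjusted p under 0.01. Of 13 heterochronic genes, which time the larval stages, mab-10, a partner of LIN-29 in the larva-to-adult switch, rose to 0.74 on the log2 scale per the authors' deposited table (adjusted p = 0.0263). The timing genes lin-14 at 0.06, lin-28 at 0.01, lin-41 at -0.01, lin-29 at 0.45 and hbl-1 at -0.22 per the authors' deposited table were not called. Of 12 vulval genes 1 rose, the EGF receptor gene let-23 at 1.14 per the authors' deposited table. None of 9 listed seam and hypodermis genes was called.

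Many genes for making long-chain fatty acids fell. Of 7 listed fatty acid desaturases 4 fell and none rose. The stearoyl-CoA and palmitoyl-CoA desaturase genes fat-6 and fat-5 were 2.11-fold and 2.66-fold lower in the double mutant per the authors' deposited table (adjusted p = 0.000347 and 7.44e-07), and fat-1, the omega-3 desaturase, was at -0.72. The other polyunsaturated desaturases fat-2 at -0.19, fat-3 at 0.01 and fat-4 at -0.31 per the authors' deposited table were not called. Of 9 listed elongases 5 fell and 2 rose. The elongases of long polyunsaturated and branched fatty acids fell, with elo-1 at -1.1, elo-2 at -1.07 and elo-6 at -1.77 per the authors' deposited table. In contrast elo-8 and elo-7 were 10.3-fold and 6.63-fold higher in the double mutant per the authors' deposited table (adjusted p = 5.24e-10 and 1.54e-08), and they were at -0.69 and -2.43 in the mir-58 single mutant.

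Acyl-CoA synthetases, which activate fatty acids, also split. Of 22 listed acs genes 4 rose and 3 fell. Those that rose, R07C3.4 (acs-15), R09E10.3 (acs-18), AH10.1 (acs-10) and ZK1127.2 (acs-6), lay between 3.12 and 4.90 per the authors' deposited table. Those that fell were acs-2 at -2.15, D1009.1 (acs-22) at -1.16 and C01G6.7 (acs-7) at -0.78 per the authors' deposited table. The product of acs-22 works in fat storage beside that of F59A1.10 (dgat-2), a triacylglycerol synthase gene, which was 3.32-fold lower in the double mutant per the authors' deposited table (adjusted p = 3.63e-10). The regulators of these pathways, sbp-1 at -0.36, nhr-49 at 0.35 and mdt-15 at 0.30 per the authors' deposited table, were not called.

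Genes that break down acyl chains differed by enzyme class. Of 13 listed acyl-CoA dehydrogenases 3 rose and 1 fell, with acdh-5 at 4.22, acdh-8 at 3.72 and acdh-4 at 2.07 among those that rose per the authors' deposited table. Peroxisomal beta-oxidation shortens the side chains of ascaroside pheromones, and 5 of its 13 listed genes fell. F08A8.2 (acox-1.2), an acyl-CoA oxidase gene, was 4.44-fold lower in the double mutant per the authors' deposited table (adjusted p = 1.68e-17), while the later enzymes maoc-1 and dhs-28 stood at -0.80 and -0.67. The thiolase gene daf-22 at -0.59 per the authors' deposited table missed the threshold (adjusted p = 0.0699). Of 10 listed propionate genes 6 fell. They come from both routes of propionate breakdown: F09F7.4 (hach-1) at -1.38 and ech-6 at -1.08 from the shunt, and pccb-1 at -0.81 and mmaa-1 at -0.68 from the vitamin B12 route per the authors' deposited table. Of 14 listed methionine and phosphatidylcholine genes 2 fell, sams-1, the S-adenosylmethionine synthetase, at -1.13 and F08C6.2 (pcyt-1) at -0.67 per the authors' deposited table. None of 19 listed glycolysis genes was called, and their median was -0.25 per the authors' deposited table.

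Markers of the intestine fell in part. Of 19 listed intestinal genes 7 fell and 1 rose. Their median was -0.58 per the authors' deposited table. Among them, the phosphatase gene pho-1 stood at -1.39, the brush border actin gene act-5 at -1.3 and the peptide transporter gene opt-2 at -0.91 per the authors' deposited table. The transcription factors that define the tissue, elt-2 at -0.05 and elt-7 at -0.48, and the esterase gene ges-1 at 0.07 per the authors' deposited table were not called. The fat, yolk, protease and lysozyme genes described here include many that are known from the intestine, and the part of the intestinal marker values in theirs was not tested. Some lists also share genes. The intestinal genes asp-1, vha-6, cpr-1, cpr-6, mtl-1 and mtl-2 are counted again below in protease, proton pump, cathepsin and metal lists. The intestinal gene that rose was cpr-1, at 1.02 per the authors' deposited table (adjusted p = 0.0353).

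Digestive and lysosomal gene lists held genes that fell and genes that rose. Of 14 listed aspartyl proteases 7 fell and none rose, led by asp-12 and K10C2.3 (asp-14), at -3.08 and -2.85 per the authors' deposited table (adjusted p = 8.92e-26 and 2.16e-26). Of 19 listed vacuolar proton pump genes 8 fell and 1 rose, but none at an adjusted p under 0.01. They moved little, with vha-12 at -0.73 per the authors' deposited table. Of 24 listed saposin-like spp genes, pore-forming proteins against bacteria, 8 fell and 1 rose, with spp-4 at -2.91 per the authors' deposited table. Of 10 listed cathepsin genes 2 rose and 1 fell, and cpr-2 stood at 4.41 per the authors' deposited table (adjusted p = 0.000134). The lipase genes lipl-1 at 1.83 and lipl-3 at -2.17 per the authors' deposited table, both known from fasting, moved apart.

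Lysozyme genes, whose products cut bacterial cell walls, went both ways among 13 listed members, with 5 that rose and 4 that fell. The invertebrate-type lysozyme gene ilys-2 and lys-10 were 32.2-fold and 31.1-fold higher in the double mutant per the authors' deposited table (adjusted p = 2.07e-48 and 1.81e-28). In contrast, lys-5 and lys-6 were 47.2-fold and 7.26-fold lower per the authors' deposited table (adjusted p = 2.31e-10 and 6.4e-10). C-type lectins, many of them induced by pathogens, gave 24 genes that rose (14.7%) and 14 that fell (8.59%) among 163. Of all names 10.5% rose and 5.86% fell, and the lectin median was 0.01 per the authors' deposited table. At the extremes stood clec-117 at 4.45 and clec-47 at -5.12 per the authors' deposited table. Both called thaumatin-like genes of 3 listed, thn-1 and thn-2, rose to 3.15 and 2.54 on the log2 scale per the authors' deposited table. Iron storage ferritin ftn-1 stood at 3.30 and the metallothionein gene mtl-2 at -1.95 per the authors' deposited table, the only calls among 12 listed iron and metal genes. Of 11 listed antioxidant genes the superoxide dismutase genes sod-4 and sod-1 were called, at 0.91 and -0.90 per the authors' deposited table.

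Large gene families are given against the 10.5% of all names that rose and the 5.86% that fell. Of 152 listed fbxa genes, F-box proteins that choose substrates for ubiquitin ligases, 25 rose (16.4%) and 1 fell, at a median of 0.58 per the authors' deposited table. Of 42 listed oac genes, putative acyltransferases, 14 rose (33.3%) and 3 fell (7.14%), with oac-14 at 1.65 and oac-29 at -2.06 per the authors' deposited table. Of 64 listed ugt genes, glucuronosyltransferases of detoxification, 13 fell (20.3%) and 1 rose, with ugt-65 at -2.35 per the authors' deposited table. Of 69 listed cytochrome P450 genes 12 rose (17.4%) and 4 fell (5.8%, near the share of all names), against 7 and 1 at an adjusted p under 0.01, with cyp-13A5 at 1.99 per the authors' deposited table. Of 229 listed nuclear hormone receptors 11 rose (4.8%, under the share of all names) and 3 fell, against 6 and 2 at an adjusted p under 0.01, and of 54 listed homeobox ceh genes none was called.

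**Figure D5:**
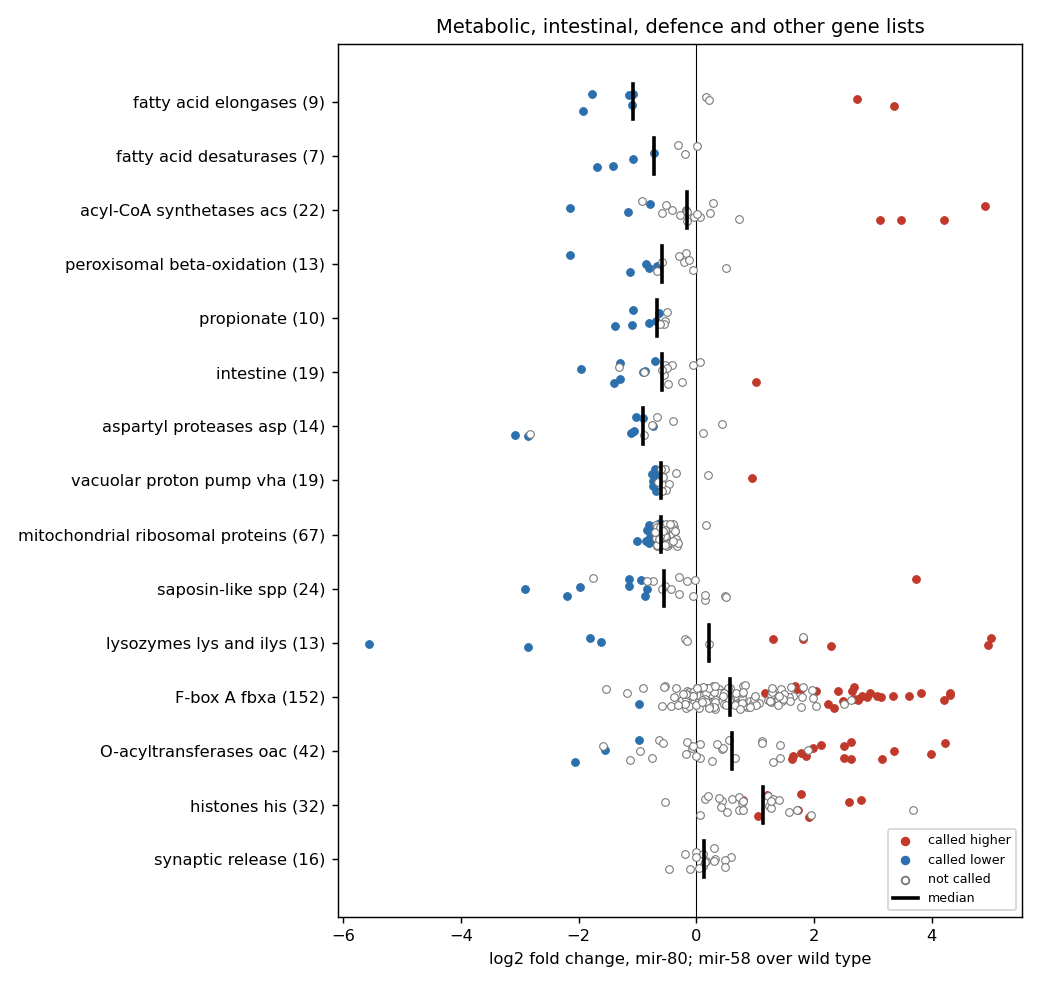
Each point is 1 listed gene, the x axis is the log2 fold change of the double mutant over wild type in the authors' comparison, and bars mark list medians (red, called higher; blue, called lower; open, not called; list sizes in brackets). Elongases, acyl-CoA synthetases and lysozymes have called genes far out on both sides, while desaturase, aspartyl protease and mitochondrial ribosome genes that were called all lie below 0.

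A minority of the mitochondrial and muscle genes fell. Of 67 listed mitochondrial ribosomal protein genes 18 fell (26.9%), 4 of them at an adjusted p under 0.01, and none rose. Values of 66 were below 0, and the median was -0.60 per the authors' deposited table. Of 38 listed respiratory chain genes 5 fell (13.2%), 1 of them at an adjusted p under 0.01, and 36 values were below 0. Of 78 listed cytosolic ribosome genes 6 rose (7.69%) and 14 fell (17.9%). The extremes, rpl-42 at 3.16 and rps-16 at -2.41 per the authors' deposited table, lay far from the median of -0.46. Of 26 listed muscle genes 5 fell (19.2%), 2 of them at an adjusted p under 0.01, and 22 values were below 0. Among those that fell were the troponin genes tni-1 at -0.98 and tnt-2 at -0.91 per the authors' deposited table. Of 12 listed basement membrane genes 1 rose, the laminin gene lam-3 at 1.2 per the authors' deposited table.

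Neuronal genes were seldom called, while insulin-like peptide genes were called more often. None of 16 listed synaptic release genes changed. Of 72 listed nlp genes 5 fell (6.94%, near the 5.86% of all names) and none rose. Of the 5, 3 passed at an adjusted p under 0.01. Some nlp genes encode epidermal antimicrobial peptides, so this count is not of neuronal genes alone. Of 28 flp neuropeptide genes 1 rose (3.57%, against 10.5% of all names). Of 12 listed neurotransmitter synthesis genes 1 fell, cat-4, which makes the cofactor of the amine-producing hydroxylases, at -0.88 per the authors' deposited table. Of 24 listed cilium genes 1 fell, dyf-13, an intraflagellar transport gene, at -2.24 per the authors' deposited table (adjusted p = 9.14e-05). That gene was at -1.16 in mir-58 and at -8.35 in the quadruple mutant per the authors' deposited table. Of 30 listed insulin-like peptide genes 3 rose and 3 fell, against 2 and 0 at an adjusted p under 0.01. The share that rose was near the 10.5% of all names, and the share that fell was above the 5.86%. Among those called, ins-37 was at 3.09, ins-11 at 1.93 and ins-35 at -1.45 per the authors' deposited table.

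Of 15 listed genes of microRNA production and action 1 rose (6.67%, under the 10.5% of all names). It was dcr-1, which encodes the Dicer enzyme, at 0.70 per the authors' deposited table (adjusted p = 0.0276). Of 12 listed cell death genes 2 rose, the caspase gene ced-3 at 0.86 and its activator ced-4 at 0.85 per the authors' deposited table (adjusted p = 0.0155 and 0.0238), and neither passed at 0.01. The gene ced-9, which restrains ced-4, was not called, at 0.57 per the authors' deposited table.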

How the data were processed

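The values are the authors' own. Their deposited table holds, for each gene and mutant, the log2 fold change over wild type with its adjusted p-value, per the file headers. The submitters' processing notes name DESeq, with no version. Aligner, counter, build and p-value adjustment are not given in the sources used here. Groups were taken from the sample titles. No values per sample were analysed here, so depth and replicate spread are unknown, and the planned count tests, replicate block and leave-one-out fits were not run.

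From the table, genes with an adjusted p under 0.05 were called by sign and counted by list, family and chromosome and in runs of at least 4 neighbouring genes. Names were matched to Ensembl release 115 of WBcel235: 15515 of 16309 matched, and no coordinates are given. The 40 lists and the comparison were chosen with earlier results of these data known. Genes named are those at the microRNA loci, targets and pathway members, the 15 highest, lowest and smallest adjusted p, up to 6 called members per list, regulators that define a list, and run members. Genes outside this rule, such as chs-1, egg-3 and ced-9, were picked with their values in view. The alternatives tried were an adjusted p under 0.01 and under 0.1, changes of at least 1.5-fold and 2-fold, centring on the median and leaving out msp genes; shares by chromosome without sperm lists were added after the data were seen. Counting was tested on simulated data. Python 3.11.15, numpy 2.4.6, pandas 2.3.3 and matplotlib 3.10.9 were used.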

Additional observations from a re-analysis of the deposited data

How the results depend on the processing

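No paired analysis was possible because the authors' deposited table holds no values per sample, and for the same reason no replicate could be left out. The count of genes that rose stayed within 1.5 times its value under every alternative. The count of genes that fell was 569 at an adjusted p under 0.01 and 481 at a change of at least 2-fold, against 955. Of 192 counts over lists and families, 41 moved by more than 1.5 times at 0.01, 46 at 2-fold and 21 at 0.1. Centring on the median of all genes turned the sign of 7 of 96 list medians, all near 0, and of no called gene named. Depth limits on low genes cannot be given.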

Other observations

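The following families were chosen after their values were seen, so their counts are a description. Of 12 listed snf genes, sodium-dependent transporter relatives, 8 rose, with snf-5 at 3.39 per the authors' deposited table, while those of known neuronal or epidermal use, snf-11 at -0.36, snf-3 at 0.09, snf-6 at 0.43 and snf-12 at -0.20, were not called. Of 9 listed wht genes, ABC transporters, 6 rose, with wht-5 at 3.56 per the authors' deposited table. Of 24 listed pals genes, some of which respond to intracellular infection, 11 rose, 7 of them at an adjusted p under 0.01, and none fell, with F22G12.1 (pals-14) at 3.02 per the authors' deposited table. Of 8 listed genes of the sperm chromatin family spch and nsph 7 rose, at a median of 4.07 per the authors' deposited table, and C04G2.8 (spch-1) was at 4.19 in the double mutant and -3.73 in mir-58. Of 19 listed nep metallopeptidase genes 8 rose and 2 fell. Of 9 listed lbp genes, fatty acid binding proteins, 5 fell, 3 of them at an adjusted p under 0.01, and none rose, with lbp-6 at -1.4 per the authors' deposited table, and of 8 listed nspb genes 6 fell, at a median of -1.62.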
